A study of Bos taurus with 16 samples.

Results

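The 4 genes described here have products that are known from the glands and lining of the pregnant uterus, or from the handling of calcium, and were followed in sorted CD14+ cells of the cow. They are the uterine serpin (SERPINA14), S100G, STC1 and SPP1. Probes were taken where the array's gene name or the symbol in its description was one of these, with the serpin listed on the array as LOC286871. S100G stands on the array under its older name CALB3 and was found through its RefSeq accession. The 4 genes, of 19712 gene names on the array, were represented by 5 of its 21475 probes, since STC1 had a pair of probes. They were chosen because they were higher in endometrium than in blood in these samples, so their levels and ratios between the tissues are a description and carry no test.

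The samples were RNA of CD14+ cells sorted by flow cytometry from the enzymatically dispersed endometrium and from the blood of 4 pregnant cows, at days 164, 239, 242 and 248 of pregnancy in animals 1 to 4. CD14 is a surface receptor of monocytes and macrophages, and the comparison asked how the endometrial macrophage differs from the blood monocyte. Per the labels, 90 to 95% of the sorted endometrial cells and 98 to 99% of the sorted blood cells were CD14+, and no animal received a treatment. Uteri and blood came from a slaughterhouse, all animals were pregnant, and ages and breeds are not given in the sources used here. Each animal's tissue pair was hybridized on 2 Agilent bovine arrays, 1 on each of 2 slides, after amplification of the RNA. The dyes were swapped between both arrays in animals 1, 2 and 4, whereas in animal 3 the endometrial RNA was in Cy5 on both. Scanner files were read as the other technical replicate of their animal, because the authors' values match them in that way. Read as they are attached to the samples, the ratios of animals 1, 2 and 4 change sign, and the mean log2 ratios become -2.34 for SERPINA14, -1.99 for S100G, -0.61 and -1.51 for the STC1 probes and -1.53 for SPP1.

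The uterine serpin is the main protein that the endometrial glands of ruminants secrete during pregnancy under progesterone, and it belongs by sequence to the serine protease inhibitors. S100G, also called calbindin-D9k, is a small calcium-binding protein of the cytosol of absorptive epithelia, among them the intestine and the uterus. STC1, stanniocalcin-1, is a secreted glycoprotein hormone that acts on calcium and phosphate transport and is made by uterine glands in pregnant ruminants. SPP1, osteopontin, is a secreted phosphoprotein that binds integrins and calcium. Osteopontin is made by uterine glands but also by macrophages and stromal cells. In bulk RNA such as this, more cells of a type and more RNA per cell cannot be told apart.

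The uterine serpin had the highest ratio of endometrium over blood of all probes tested with the normexp background correction used here, and ranked 7th in the authors' value table. The probe that measured it was a 60-base oligonucleotide. Its sequence is shown, as deposited with the scanner data, because it defines what was measured. It had no stop codon in 2 of the 3 forward reading frames, and no part of it is in capitals because no motif in it was examined.

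SERPINA14 probe: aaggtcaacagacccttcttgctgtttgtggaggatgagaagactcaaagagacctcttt

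Levels of SERPINA14 are given as the log2 of the normalized intensity, averaged over both arrays of an animal. In endometrium they were 12.38, 13.50, 15.92 and 15.61 in animals 1 to 4, and in blood 7.59, 8.19, 8.40 and 8.83. The groups did not overlap, and the lowest endometrial level lay 3.55 above the highest blood level. Within the animals the log2 ratio was 4.79, 5.31, 7.52 and 6.78, with a mean of 6.10 ± 1.27 (SD, n = 4), or 68.7-fold. The probe ranked next, that of gzmA, a protease of cytotoxic lymphocytes, had a mean log2 ratio of 5.95. In the authors' value table gzmA was first, at 6.91, the RefSeq probe of STC1 had 6.79 and SERPINA14 had 6.53. The uterine serpin was read well above background in all 8 blood channels too. There the spot intensity ran from 120 to 234.5 in Cy3, over a background of 12 to 15.75, and from 250.5 to 836.5 in Cy5, over a background of 43.5 to 50.5. In endometrium the intensity reached 117642.5, and no spot on any array was marked as saturated.

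S100G was high in the endometrial cells of every animal and varied less among animals than the others. The endometrial log2 levels were 11.54, 11.65, 13.62 and 12.74 in animals 1 to 4. The blood levels were 7.60, 7.78, 8.68 and 7.65, so that animal 3 stood above the other blood samples, which lay within 0.18 of each other. The blood RNA of animal 3 alone was in Cy3 on both arrays. The groups did not overlap. The mean log2 ratio was 4.46 ± 0.65 (SD, n = 4), or 22.0-fold, with 3.94, 3.87, 4.94 and 5.09 in animals 1 to 4. The spread of this ratio between animals was near the middle of that of all probes tested, with a percentile of 47.0.

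STC1 was read by a probe under its RefSeq transcript and by a second probe that the array describes as similar to human STC1. With the RefSeq probe (A_73_103829), endometrial log2 levels were 7.64, 8.04, 11.51 and 9.77 in animals 1 to 4, and blood levels were 6.03, 6.22, 6.80 and 6.03. None of the 8 blood channels was well above background for it. Its blood intensity was 19.2 to 20.5 in Cy3 over a background of 12 to 15.25, and only a lower bound can be given: on the scale of these levels STC1 was at least 7.63-fold higher in endometrium, and at least 5.06-fold without animal 3. The bound sets the endometrial mean of 9.24 against a blood mean of 6.31. In that mean each blood value below the lowest signal well above background on its channel was put at that signal, and the measured blood mean was 6.27. With quantiles of the average intensity in place of quantiles over channels, the bound was 8.63-fold. It is open to dye bias in animal 3, whose dyes were not swapped.

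With the second STC1 probe (A_73_114455), all 8 blood channels were above background. Endometrial log2 levels were 10.68, 10.65, 14.57 and 12.75, and blood levels were 7.03, 7.07, 8.27 and 7.63. The mean log2 ratio was 4.66 ± 1.30 (SD, n = 4), or 25.3-fold. Both probes put animals 3 and 4 above animals 1 and 2 in endometrium, and their levels correlated with r of 0.981 over the 8 means of animal and tissue. The size of the ratio computed for the RefSeq probe, whose blood values are background, depended on how background was treated. It was 2.97 (log2) here and 6.79 in the authors' value table, whereas the second probe had 4.66 and 5.37.

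SPP1 was the exception among the 4 genes, because its endometrial level differed widely between animals. Endometrial log2 levels were 14.90, 6.44, 12.61 and 10.35 in animals 1 to 4, and blood levels were 8.68, 5.99, 8.29 and 6.57. The groups overlapped, since the endometrial cells of animal 2 lay 2.24 below the blood cells of animal 1. Within every animal the endometrial level was nevertheless the higher one, with log2 ratios of 6.22, 0.45, 4.32 and 3.78. The ratio of animal 2 was set against a blood value at background and is not exact. The mean was 3.69 ± 2.40 (SD, n = 4), 2.85 without animal 1 and 4.77 without animal 2. In the authors' value table the ratios were 6.48, 3.55, 4.74 and 5.23, with a mean of 4.999 ± 1.22, so that the wide spread of the ratio, but not that of the endometrial level, was reduced there. The endometrial range was 10.4 (log2) in that table and 8.46 here.

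The raw intensities of SPP1 showed the same range. In animal 1 the endometrial RNA gave 58332.25 in Cy5 and 21256.25 in Cy3. In animal 2 it gave 95.5 in Cy5 and 33 in Cy3, over backgrounds of 39.75 and 15.5. The blood cells of animal 2 were the only ones not above background, so that 6 of 8 blood channels were. The highest endometrial level was 351.4 times the lowest, compared with 11.6 times for SERPINA14, 4.24 times for S100G and 15.2 times for the second STC1 probe.

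**Figure D1:**
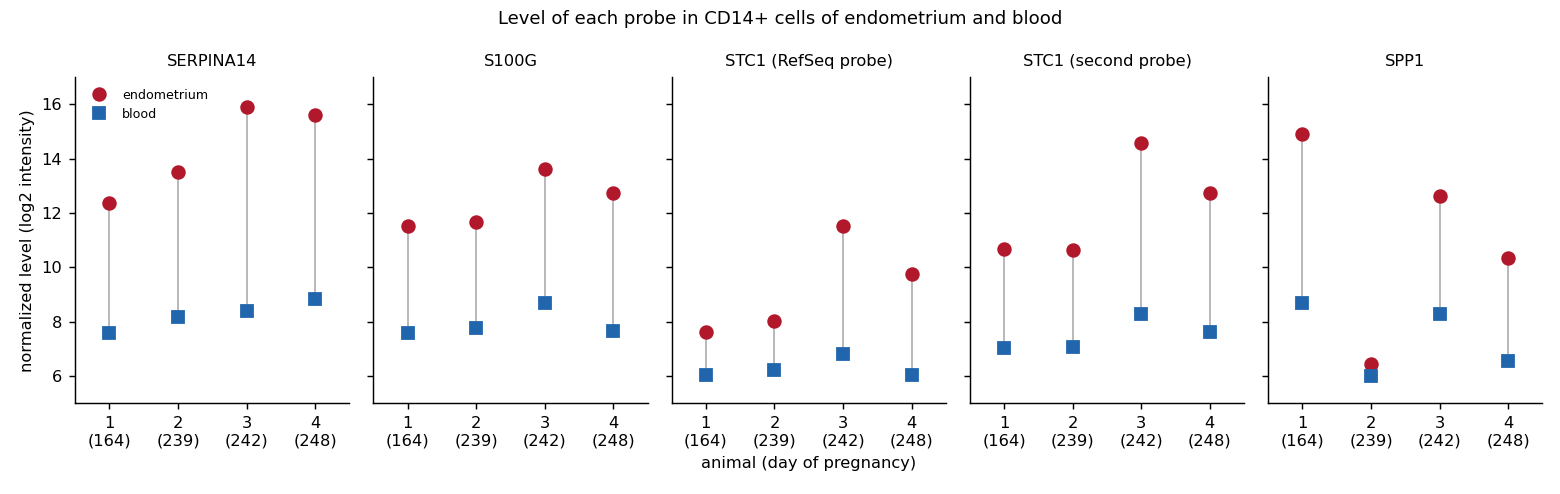
Normalized log2 level of each probe (y axis) in the endometrial (red circles) and blood (blue squares) CD14+ cells of animals 1 to 4, with the day of pregnancy in brackets; each point is the mean of 2 arrays and grey lines join the tissues of an animal. Endometrial cells were higher in all 4 animals for every probe, but SPP1 in animal 2 was 6.44 against 5.99.

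By the number of animals, all 5 probes were higher in endometrium in 4 of 4 animals, as were 10.2% of the 16653 probes tested. For 4 of the 5 probes, all but that of SPP1, the groups did not overlap, as was so for 2.41% of all probes tested in that direction and 3.03% in the opposite one. These percentages stand as background only, because the genes were chosen on this contrast. Among the ratios, that of SERPINA14 exceeded that of the second STC1 probe by 1.44 ± 0.30 (SD, n = 4) on the log2 scale, in 4 of 4 animals. The ratios of the second STC1 probe and of S100G differed by 0.20 ± 0.79, which is less than the spread between animals, and the sign of the difference was divided 2 to 2.

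Both arrays of an animal gave close ratios for SERPINA14 and SPP1. For SERPINA14 they differed by at most 0.17 on the log2 scale, whereas the animals had an SD of 1.27. For SPP1 the largest difference was 0.32 and the SD between animals was 2.40. For S100G and the second STC1 probe the array with the endometrial RNA in Cy3 gave the higher ratio in each of the 3 animals with swapped dyes, by up to 0.48 and 0.37. That array was on the second slide in all 3, so dye and slide cannot be told apart. In animal 3, with the endometrial RNA in Cy5 on both arrays, the second slide also gave the higher ratio. It was 5.02 against 4.87 for S100G and 6.43 against 6.17 for the second STC1 probe. The median difference for S100G was 0.40, beside an SD between animals of 0.65. For the RefSeq STC1 probe, whose blood values are background, the arrays differed by up to 0.88, with a median of 0.65. Across all probes tested, the median of the largest difference between an animal's arrays was 0.21 and the median SD between animals was 0.68. Among all probes tested, the percentile of the SD between animals was 99.2 for SPP1, 84.5 for SERPINA14 and 85.6 for the second STC1 probe. In the authors' value table it was 55.3, 51.4 and 42.0, and 13.6 for S100G.

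**Figure D2:**
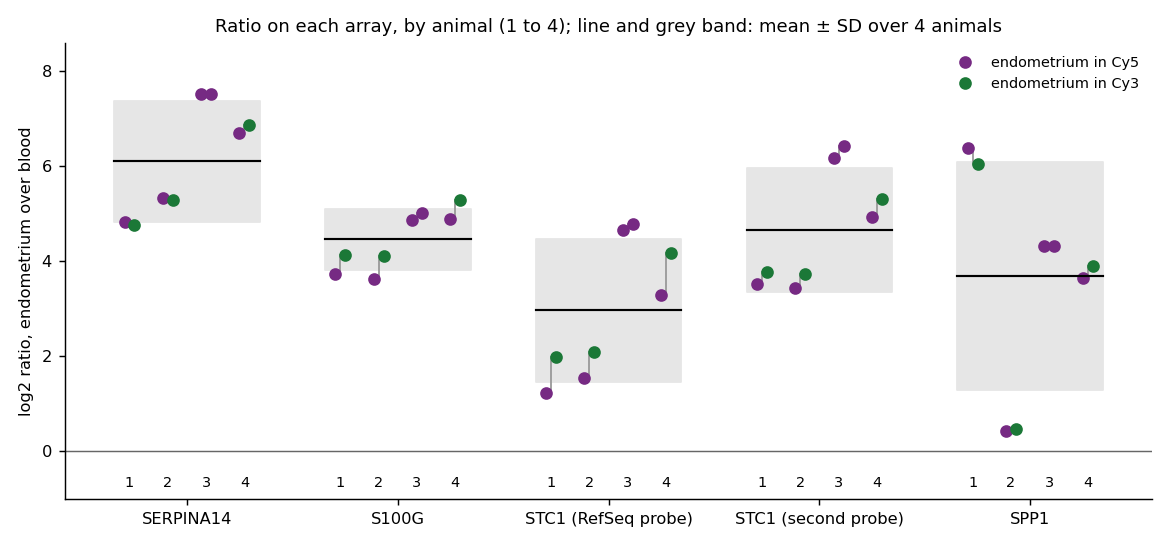
Log2 ratio of endometrium over blood (y axis) on each of the 8 arrays, by probe and animal (1 to 4), colored by the dye of the endometrial RNA; the black line and grey band are the mean and SD over 4 animals. Arrays of an animal differ by at most 0.17 for SERPINA14 and by up to 0.88 for the RefSeq STC1 probe. Blood was at background for the RefSeq STC1 probe in all animals and for SPP1 in animal 2, so these ratios are not exact, and SPP1 ran from 0.45 to 6.22 here but from 3.55 to 6.48 in the authors' values.

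SERPINA14, S100G and STC1 shared a pattern over the animals that SPP1 did not follow. In endometrium the first 3 genes were highest in animal 3 and next in animal 4, whereas SPP1 was highest in animal 1, followed by animals 3, 4 and 2. Over the 8 means of animal and tissue, the levels of SERPINA14, S100G and STC1 (second probe) correlated with r of 0.97 to 0.98. Their r with SPP1 was 0.54 with SERPINA14, 0.64 with S100G and 0.63 with STC1. These values describe points that share animals and arrays, and the difference between the tissues sets much of them. The pregnancy of animal 1 was at day 164 and those of the other animals between days 239 and 248, so that stage and animal cannot be told apart.

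Blood levels in part mirrored the endometrial ones. For SPP1 the animals stood in the same order in blood as in endometrium, with animal 2 at background in blood, which was so for 9.08% of all probes tested. S100G and STC1 (second probe) were highest in animal 3 in either tissue, and SERPINA14 was highest in animal 3 in endometrium and in animal 4 in blood. Among all probes tested, the highest animal was the same in both tissues for 36.2%. The range between animals was smaller in blood, at 1.24 (log2) for SERPINA14 and 2.69 for SPP1, than in endometrium, at 3.54 and 8.46.

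The probes most like each gene over the 8 means were then listed, as a description with r. For SERPINA14 these were LOC281964 (r = 0.986), which the array describes as pregnancy-associated glycoprotein 1, C15H11orf52 (r = 0.985), BG691919 (r = 0.971), the placental prolactin-related protein PRP3 (r = 0.967) and AW289295 (r = 0.966). BG691919 and AW289295 are unidentified transcripts on the array. For S100G they were LOC281964 (r = 0.988), C15H11orf52 (r = 0.987), PAG10 (r = 0.983), PRP1 (r = 0.978) and PAG4 (r = 0.977). The PAG and PRP genes encode glycoproteins and prolactin relatives that ruminant trophoblast secretes. For STC1 the nearest were DCDC2 (r = 0.993), C15H11orf52 (r = 0.992), PRP3 (r = 0.987), C3H1orf210 (r = 0.982) and LOC281964 (r = 0.973). C15H11orf52 and LOC281964 were therefore on the lists of all 3 genes. C15H11orf52 had log2 levels of 8.22, 8.50, 10.00 and 9.47 in endometrium and of 6.24 to 6.95 in blood.

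SPP1 had other neighbors, and none of them was on a list of the other 3 genes. They were MPZL1 (r = 0.995), a membrane glycoprotein, RGL1 (r = 0.989), a regulator of Ral GTPases, HTRA1 (r = 0.986), a secreted serine protease, SMARCA1 (r = 0.985), a chromatin remodeler, and FBLN5 (r = 0.984), a protein of elastic fibers. RGL1 had endometrial log2 levels of 14.19, 7.79, 11.95 and 11.03 in animals 1 to 4, in the same order of animals as SPP1.

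The other genes of each gene's setting were taken from lists of related genes, with 1 probe per gene, and each was tested with limma over 4 animals and all 16653 probes. The adjusted rule asked for a fold change over 2 with a Benjamini-Hochberg p up to 0.05. It called 11 probes (0.0661%), all higher in endometrium, and 0% higher in blood. None of the 79 genes tested in the 5 lists was among them. The unadjusted rule asked for the same fold change with an unadjusted p up to 0.05. It called 10.4% of probes, of which 5.28% were the higher ones in endometrium and 5.11% the lower ones. The counts by list use this unadjusted rule. The median log2 ratio of all probes tested was -0.023.

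Secreted and receptor genes of the uterine glands and luminal epithelium were mostly higher in endometrium. Of 30 listed symbols 22 were tested, 18 had a mean ratio above 0, and 8 were called higher and 1 lower, with a list median of 0.97. The largest were RBP4 (3.69 ± 0.60, log2 ratio ± SE, adjusted p = 0.228 with limma), which carries retinol, the protease inhibitor CST6 (3.47 ± 0.62, adjusted p = 0.242) and the chemokine CXCL14 (3.26 ± 0.68, adjusted p = 0.262). Each of these was higher in 4 of 4 animals. The others called higher were TIMP2 at 2.64, CST3 at 2.62, PIGR at 2.23, IGFBP3 at 1.77 and MUC1 at 1.66. They encode a metalloprotease inhibitor, the protease inhibitor cystatin C, the receptor that carries polymeric antibodies across epithelia, a binding protein of insulin-like growth factors and a mucin. TIMP2 and CST3 were also bright in blood, with mean log2 levels of 10.38 and 10.75 and all 8 blood channels above background. LCN2, a lipocalin also made by neutrophils, was called lower, at -1.11, but not without animal 1, 2 or 3. RBP4, CST6, CXCL14, CST3 and PIGR were called whichever animal was left out, whereas TIMP2 was lost without animal 3 or 4, MUC1 without animal 1 or 3, and IGFBP3 without animal 1, 3 or 4. Without animal 3, 5 genes of the list were called, and the list's median fell from 0.97 to 0.53.

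The relatives of S100G did not share its ratio. Of 15 genes tested of the S100 list, 7 had a mean ratio above 0 and the median was -0.13. It was 0.19 without animal 1 and 0.18 without animal 2, so that the list as a whole had no settled direction. S100A14, an S100 protein of epithelia, was the only one called, at 2.00 ± 0.79 (log2 ratio ± SE, adjusted p = 0.323 with limma), and it was higher in 3 of 4 animals. It was not called without animal 1, 3 or 4, and 3 genes of the list were called without animal 2. S100A8, a calgranulin of neutrophils and monocytes, had a log2 ratio of -1.30 ± 1.21, with -4.18, -3.87, 2.21 and 0.63 in animals 1 to 4. S100PBP, which binds S100P and is itself no S100 protein, had 1.16 ± 0.59.

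The genes of transcellular calcium transport, in which calbindins ferry calcium from entry channels to pumps, were mostly dim in both tissues. Of 12 tested, 6 had a mean ratio above 0 and none was called in either direction, by the adjusted or the unadjusted rule, and the median was 0.0033. The largest mean ratios were those of PTHLH, the parathyroid hormone-related peptide, at 0.92 ± 0.59, SLC8A1, a sodium-calcium exchanger, at 0.58 ± 0.35, and CYP24A1, which breaks down vitamin D, at 0.54 ± 0.61. In animals 1 to 4 PTHLH had 3.11, -0.087, 0.011 and 0.63, and CYP24A1 had -0.79, 0.30, 2.78 and -0.12. Each of these 2 means thus rested largely on 1 animal. The entry channel TRPV6, the calbindins CALB1 and CALB2 and the STC1 relative STC2 were too dim to be tested. Of the genes tested, all but ATP2B1, ATP2B4 and SLC8A1 had mean log2 levels of at most 7.11 in endometrium and 6.71 in blood. TRPV6, at background in every blood channel, had 6.02 in blood. The ratios near 0 of the dim genes therefore do not show a lack of change.

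The relatives, receptors and cleaving enzymes of osteopontin gave 15 genes tested, of which 10 had a mean ratio above 0, with a median of 0.21. ITGB6, an integrin chain of epithelia, was called higher, at 1.52 ± 0.52 (log2 ratio ± SE, adjusted p = 0.289 with limma) and in 4 of 4 animals, although not without animal 1, 2 or 3. Without animal 4, 2 genes of the list were called. ITGB5, an integrin chain that pairs with ITGAV, had 2.09 ± 0.86, and the crosslinking enzyme TGM2 had 1.0998 ± 0.95, with 3.34, -1.84, 3.01 and -0.11 in animals 1 to 4.

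Of the other serpins, 15 were tested and 12 had a mean ratio above 0, with a median of 0.57. SERPINH1, a collagen chaperone of the endoplasmic reticulum, was called higher, at 3.30 ± 0.50 (log2 ratio ± SE, adjusted p = 0.194 with limma), in 4 of 4 animals. SERPINB2, an inhibitor of plasminogen activators found in monocytes, was called lower, at -1.85 ± 0.65 (adjusted p = 0.293), also in 4 of 4 animals, but not without animal 2 or 3. SERPINF1 had 1.60 ± 0.99, with 5.49 in animal 1 and -0.017 in animal 4. Without animal 3 the median of the list was -0.030 and 1 gene was called, higher in endometrium.

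**Figure D3:**
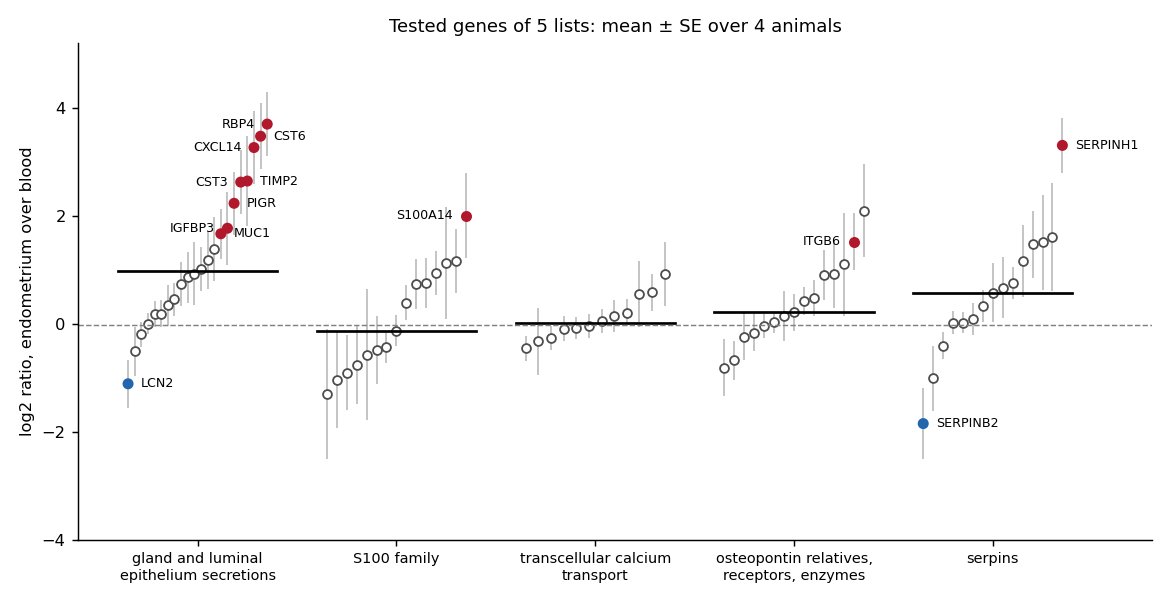
Log2 ratio of endometrium over blood (y axis; mean and SE over 4 animals) of the tested genes of 5 lists; filled points were called by the unadjusted rule (red higher, blue lower in endometrium), black lines are list medians and the dashed line is the median of all probes tested. The gland and luminal list has 8 red points, and the calcium transport list has no filled point.

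Markers of other cell types were set beside these values. All 14 epithelial markers tested had a mean ratio above 0, with a median of 1.55 and 6 called by the unadjusted rule. Their summed normalized intensity was 3909 to 57232 in endometrium and 1376 to 3720 in blood, and all of them were above background in some channel of either tissue. KRT18 and CLDN3, the brightest, had log2 ratios of 3.21 ± 0.36 and 3.24 ± 0.30 (SE). The epithelial sum was 13.4 times as high in the endometrial cells of animal 3 as in those of animal 4, whereas SERPINA14 was 1.24 times, S100G 1.84 times and STC1 (second probe) 3.52 times as high. The trophoblast sum was 2.78 times as high. In endometrium animal 1 came next after animal 3 for both sums, whereas SERPINA14 and S100G were lowest in animal 1. Animal 3 was the highest in blood too, for the epithelial sum and for S100G and STC1.

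Of 11 trophoblast markers tested, 10 had a mean ratio above 0, with a median of 1.07, and 4 were called by the adjusted rule. PAG10, the brightest beside PAG1, had log2 levels of 13.27, 12.11, 14.78 and 13.03 in endometrium and of 8.26 to 9.15 in blood. The symbol PAG1 (-2.35 ± 0.54, SE) is shared with a membrane adaptor of leukocytes and may not be the placental gene. LOC281964, which the array describes as pregnancy-associated glycoprotein 1, is read by another probe, with a mean log2 ratio of 2.31. PAG1 is kept among the 11 markers counted. The summed intensity was 13522 to 44200 in endometrium and 2806 to 8063 in blood. Without PAG1, which made up most of the blood sum in every animal, it was 12487 to 44049 and 1167 to 1840, and in both tissues it was highest in animal 3. The blood sums of animals 1 to 4 were 2806, 8063, 4298 and 4137 with PAG1. They were 1394, 1463, 1840 and 1167 without it. On the array 2 of the 13 markers were at background in every channel of both tissues. For stromal markers the sum was 2548 to 117935 in endometrium and 3112 to 32939 in blood, with a median ratio of 1.66 and 10 of 11 above 0. It was highest in animal 1 and lowest in animal 2 in endometrium, as was SPP1, and COL1A1 had endometrial log2 levels of 14.17, 6.27, 8.37 and 9.02. VIM, the other bright marker of that list and also abundant in leukocytes, had a log2 ratio of -0.73 ± 0.46. Without VIM the stromal sum was 774 to 109507 in endometrium and 731 to 2265 in blood, and animal 1 stayed the highest in both. Animals 3, 4 and 2 followed in either tissue, which is the order of SPP1, although in blood they were close, at 842, 736 and 731. With VIM kept, the order was animals 1, 4, 3 and 2 in endometrium and 1, 2, 4 and 3 in blood. Neither of these is the order of SPP1. These sums without a gene were added after the values were seen.

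The monocyte and macrophage markers, of which only CD14 was used in the sort, summed to 11906 to 105447 in endometrium and to 6758 to 150139 in blood. In each animal and tissue, 8 to 10 of the 10 were above background on both arrays. Their median log2 ratio was 1.22, and 6 of 10 had a mean ratio above 0. By the unadjusted rule 5 were called higher in endometrium, as were 5.28% of all probes tested. In endometrium their sum was highest in animal 1, followed by animals 3, 4 and 2, which is the order of SPP1. In blood it was highest in animal 1, followed by animals 2, 3 and 4, which is not the order of SPP1. AIF1 had endometrial log2 levels of 14.33, 12.75, 14.37 and 14.32, and TYROBP had a log2 ratio of 1.06 ± 0.82. CD14 itself, on which the cells were sorted, had log2 levels of 12.17, 6.41, 8.14 and 6.82 in endometrium and of 14.24, 6.30, 7.63 and 6.69 in blood, with a log2 ratio of -0.33 ± 0.48. Its mRNA was thus low in animals 2, 3 and 4 in both tissues. CD68 had a log2 ratio of 1.37 ± 0.44. The part that cells of these other types had in the levels of the 4 genes was not tested.

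**Figure D4:**
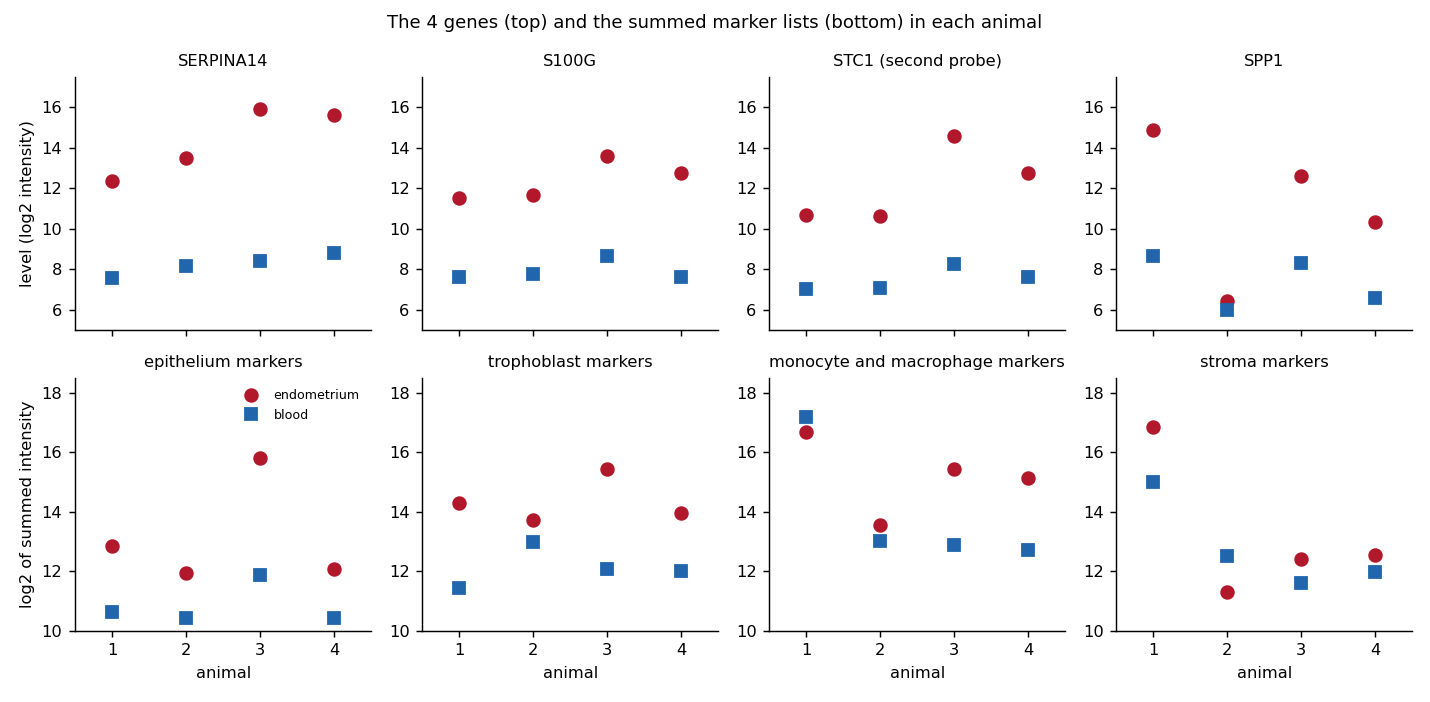
Top row, normalized log2 level (y axis) of the 4 genes, STC1 by its second probe, and bottom row, log2 of the summed normalized intensity (y axis) of 4 lists of cell type markers, in endometrial (red circles) and blood (blue squares) cells of animals 1 to 4. Epithelial and trophoblast markers peak in animal 3 in endometrium, followed by animal 1, in which SERPINA14 and S100G are lowest. Monocyte and stromal markers and SPP1 are highest in animal 1 in both tissues, the blood stromal sum of animal 1 (32939) being mostly VIM.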

How the data were processed

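RNA of CD14+ cells from endometrium and blood of 4 cows was measured on 8 two-color Agilent arrays (16 samples). The authors deposited, per the file headers, scanner files of Feature Extraction 10.5.1.1 with the median intensity of each spot and its background in each dye, not normalized, and the scanner's processed intensity. The labels and the submitters' processing notes name version 9.5. The authors also deposited a table of log2 values, for which the methods give lowess on each array and then quantile normalization. Gene counts and read depth do not apply, and precision is limited by how few arrays there were.

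The 16 columns of these log2 values were each compared by rank with the scanner's processed intensity. Each spot of a file was given the column's value of the same rank, with the spots of a probe taken in either order. For the labeled dye in the file of the animal's other technical replicate, 100% of probes then matched within 0.001. In the sample's own file at most 0.0186% of probes did. Files were therefore read as that other replicate, a choice made after the values were seen. With this reading the ratios of animals 1, 2 and 4 correlated with those of animal 3 with r of 0.37, 0.45 and 0.36, and with the files as attached these were -0.37, -0.45 and -0.36.

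Spot medians were corrected with normexp (offset 50), then put through within-array loess and quantile normalization over channels with limma 3.58.1 (R 4.3.3, statmod 1.5.0). Control and outlier spots were excluded, and the remaining spots of each probe averaged. Log2 ratios were taken within the animal as the mean of 2 arrays and tested against 0 with lmFit and eBayes, with Benjamini-Hochberg adjustment. The test covered the 16653 probes well above background in at least 4 of 8 channels of at least 1 tissue. Both tissues of an animal were paired by the animal in the labels, and their deviations from the tissue means had r of 0.62, 0.36, 0.21 and 0.46 for animals 1 to 4. The fit was checked on simulated data.

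The genes and the lists were chosen with earlier results of these data known, and the genes bear no test. Named are every probe of the 4 genes, the 5 probes most like each by r, the list genes called and the up to 3 with the largest ratio per list, the 2 brightest markers of each cell type, CD14 and CD68. The other genes singled out in the calcium list, and LOC281964 and C15H11orf52 as shared neighbors, were named after their values were seen. Probe names were updated through a RefSeq gene table (ARS-UCD2.0), whose coordinates were not used. Alternatives changed the intensities, background correction, normalization, filter, slides, animals, pairing, probes and test.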

Additional observations from a re-analysis of the deposited data

Results flagged for a closer look

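The blood level of S100G in animal 3 stood apart from the other blood samples. The log2 levels were 7.60, 7.78, 8.68 and 7.65 in animals 1 to 4, and the gap of animal 3 to its nearest neighbor was 0.834 of the whole range, above the 95% critical value of Dixon's test for 4 samples. Of the 15 groups of 4 values examined this way, it was the only one past the limit, and chance alone puts about 1 in 20 groups past it. The epithelial marker sum in blood was also highest in animal 3, at 3720 against 1376 to 1576. Animal 3 was also the only animal with its blood RNA in Cy3 on both arrays. For S100G the array with the endometrial RNA in Cy3 gave the higher ratio in animals 1, 2 and 4, by up to 0.48. These arrays were all on the second slide, so dye and slide cannot be told apart there. The parts that epithelial cells, the dye and the slide had in this S100G level were not tested.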

How the results depend on the processing

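Over the 11 alternatives other than the files as attached, the mean log2 ratio of endometrium over blood stayed above 0 for all 5 probes, from 5.63 to 6.54 for SERPINA14, 4.25 to 4.94 for S100G, 4.12 to 5.37 for the second STC1 probe, 2.39 to 6.79 for the RefSeq STC1 probe and 2.85 to 4.999 for SPP1. The value of 6.79 for the RefSeq STC1 probe came from the scanner's processed signal and from the authors' value table alike. These also gave a median of 2.496 for the gland and luminal list, with 15 of its genes called, and a median of all probes of -0.139 compared with -0.023. With the scanner files as attached, an alternative chosen after seeing the data, the ratios turned to -2.34 for SERPINA14, -1.99 for S100G, -0.61 and -1.51 for STC1 and -1.53 for SPP1, since animals 1, 2 and 4 then change sign. The number of probes called by the adjusted rule was 11 and depended strongly on the processing. It was 224 with the processed signal or the authors' table (204 higher in endometrium), 66 with an offset of 16, 50 without background correction, 5 without quantiles, 5 without the filter on dim probes, 5 and 20 with the first or the second slide alone, and 0 with the files as attached or with the methods' analysis of variance. It was 792 when the 8 arrays were fitted singly, with a term for dye and the animal as a random block, which counts both arrays of an animal. Leaving out each animal gave 0 to 0 calls by limma, and 916 to 2258 by the unadjusted rule. That rule, with 1730 calls, gave 2670 with the processed signal or the authors' table, 121 with the files as attached and 687 with the methods' analysis of variance. Without quantiles 62.5% of its calls were higher in endometrium, compared with 50.8%. With no replicate block, that is without the pairing by animal, 4 probes were called by the adjusted and 1124 by the unadjusted rule, and 4 genes of the gland list instead of 9. Of the serpins the median was -0.030 to 0.55 when each animal was left out and 0.073 without the filter. Of the 5 most similar probes, Spearman's rho kept 0 for SERPINA14, S100G and STC1 and 1 for SPP1, with many ties over 8 points, and the authors' table kept 3, 2, 3 and 1. The causes of these differences were not tested. Depth has no counterpart here, and signal over background limited the RefSeq STC1 probe and SPP1 in animal 2.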
